A study of Mus musculus with 4 samples.

Results

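Ly49 and NKR-P1 receptors are lectin-like proteins of the natural killer (NK) gene complex on mouse chromosome 6. Their 10 genes examined here, taken by name, were Klra1, Klra3, Klra5, Klra6, Klra7 and Klra9 of the Ly49 family and Klrb1a, Klrb1b, Klrb1c and Klrb1f of the NKR-P1 family, out of 53715 genes in the count table. All 10 passed the filter on low counts, which left 14185 genes. They were measured by RNA sequencing in invariant natural killer T (iNKT) cells, the T cells that recognise lipids on CD1d. Thymocytes negative for the dead-cell dye 7AAD, positive for TCRβ and stained by a CD1d tetramer were sorted from mice of the C57BL/6 background aged 6 to 8 weeks, and Smart-seq2 libraries were made from them. One group of 2 libraries had the genotype WT. The other group of 2 libraries had the genotype Mettl3fl/flCD4-cre, called Mettl3 knockout below, in which Cre under Cd4 control is known to act from the CD4+CD8+ thymocyte stage onward. METTL3 is the catalytic subunit of the enzyme that places the m6A mark on mRNA. The labels do not say whether WT mice carried Cre or the floxed allele, nor whether each library came from another animal, so the p-values rest on a spread between libraries that may be only technical.

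Inhibitory Ly49 receptors bind MHC class I on neighbouring cells and recruit phosphatases through a motif in their cytoplasmic tail, while activating Ly49 receptors lack that motif and signal through the adaptor DAP12. NKR-P1 receptors bind lectin-like proteins of the Clec2 family encoded next to them, and NKR-P1C is the NK1.1 antigen by which mature iNKT cells and NK cells are recognised. Ly49 genes are switched on in some cells and not in others, and on iNKT cells they appear late in maturation, mostly with the NK-like programme of NKT1 cells.

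The 10 genes lay in an array on chromosome 6 of GRCm38 that begins with Klrb1a (128609227 to 128623533, minus strand), Klrb1c (128778485 to 128789215, minus), Klrb1b (128813706 to 128826331, minus) and Klrb1f (129045901 to 129057464, plus). The Ly49 genes followed on the minus strand as Klra5 (129898996 to 129917650), Klra6 (130013033 to 130026954), Klra9 (130178675 to 130193112), Klra7 (130218605 to 130233322), Klra3 (130323289 to 130337574) and Klra1 (130363917 to 130386874). The families arose by gene duplication, and many of the copies, but not all, still share sequence upstream of their starts. All 10 had a promoter window in RefSeq (GRCm38.p6), from 250 bases before to 50 after the annotated start. The Klra1 window aligned with that of Klra9 over only 51 bases, with a longest common run of 8. Of the 2 windows of Klra7, 1 aligned with that of Klra9 over 14 bases and the other over 224 bases, at 82.6% identity. Klra9 and Klra3 are shown because their windows were 96.4% identical over 281 aligned bases. Klrb1c and Klrb1a are shown because theirs were 90.8% identical over 260 aligned bases while of this pair only Klrb1c passed the test given below. The 250 bases before each start are printed 5′ to 3′ on the minus strand, and capitals mark the longest run that the pair has in common, 75 bases for Klra9 and Klra3 and 41 bases for Klrb1c and Klrb1a.
Klra9, chr6:130193113-130193362: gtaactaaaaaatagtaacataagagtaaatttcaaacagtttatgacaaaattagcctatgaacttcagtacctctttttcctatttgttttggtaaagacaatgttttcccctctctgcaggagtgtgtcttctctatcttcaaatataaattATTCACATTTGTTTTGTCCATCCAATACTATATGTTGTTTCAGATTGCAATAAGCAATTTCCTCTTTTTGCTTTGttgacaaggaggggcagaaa
Klra3, chr6:130337627-130337876: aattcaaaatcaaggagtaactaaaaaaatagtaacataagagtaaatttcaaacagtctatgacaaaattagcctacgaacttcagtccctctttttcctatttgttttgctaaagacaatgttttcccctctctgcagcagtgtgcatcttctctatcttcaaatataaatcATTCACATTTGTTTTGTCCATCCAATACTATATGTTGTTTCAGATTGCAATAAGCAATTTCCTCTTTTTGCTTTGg
Klrb1c, chr6:128788642-128788891: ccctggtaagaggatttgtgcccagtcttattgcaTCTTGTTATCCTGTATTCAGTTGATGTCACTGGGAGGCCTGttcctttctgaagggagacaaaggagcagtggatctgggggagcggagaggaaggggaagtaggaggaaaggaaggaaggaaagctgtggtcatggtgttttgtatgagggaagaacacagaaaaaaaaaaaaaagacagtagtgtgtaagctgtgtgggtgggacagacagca
Klrb1a, chr6:128622935-128623184: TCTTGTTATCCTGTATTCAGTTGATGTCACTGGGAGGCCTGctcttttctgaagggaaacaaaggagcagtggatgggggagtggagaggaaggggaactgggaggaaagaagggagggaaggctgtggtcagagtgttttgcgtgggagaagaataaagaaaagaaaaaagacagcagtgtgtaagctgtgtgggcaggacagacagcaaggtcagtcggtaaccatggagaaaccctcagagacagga
A run of 15 bases, GAGGTTGAGTATCAC, was shared by windows of Klra3, Klra5, Klra6, Klra7 and Klra9. The same run stood in windows of 7 genes in the whole RefSeq table, the other two being Klra8, which encodes the activating receptor Ly49H, and the predicted gene Gm52487.

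Short motifs of transcription factors active in NKT1 and NK cells were searched on both strands of the windows, with overlapping matches counted. The RUNX motif TGTGGT was found in 3 of the 10 genes (Klra1, Klrb1a and Klrb1c), against 16.8% of the 32851 windows in the table. The TCF/LEF motif CTTTGA was found in 4 of the 10 (Klrb1b, Klrb1f, Klra6 and Klra7), against 16.0% of all windows. The ETS motif AGGAAG was found in 6 of the 10 (all 4 NKR-P1 genes, Klra1 and Klra7), against 35.4%. The T-box motif AGGTGTG was in 0 of the 10, against 5.84%. These are matches of letters in one window per start and say nothing of binding. A gene was counted if any of its windows held the motif, while the percentages are per window. Klrb1b and Klra7 have 2 windows each, and Klra7 held the ETS motif in only 1 of them.

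Counts over genes totalled 24374587 to 28316016 per library, at which 3 counts, used below as the floor for a gene with no count, corresponded to 0.107 to 0.120 CPM (reads per 1000000 counts after TMM scaling). Mettl3 itself stood at 92.2 and 124 CPM in WT and at 78.1 and 91.4 CPM in the knockout, and the difference did not pass the test (log2 fold change −0.35, adjusted p = 0.357 by edgeR's quasi-likelihood test). These counts cover the whole gene, and which exons were deleted is not given in the sources used here, so they do not check the deletion. Of 8 iNKT identity genes all were tested, and 7 did not pass by edgeR, among them Cd3e and Trbc2. Trac, the constant region of the T cell receptor α chain, was lower (log2 fold change −0.58, adjusted p = 0.0124 by edgeR). That call was lost without knockout replicate 1 or 2. By DESeq2, as at an unadjusted p under 0.05 by edgeR, 3 of the 8 were lower and 1 higher. Over all tested genes edgeR called 1.51% lower and 1.09% higher, and DESeq2 called 682 genes lower and 697 higher. The log2 fold change was negative in 5 of the 8.

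Most of these receptor transcripts were lower in the knockout. All 10 genes had a negative log2 fold change (knockout over WT), 7 of the 10 passed the test at an adjusted p under 0.05 and 0 of the 10 were higher (0 by DESeq2 or at an unadjusted p under 0.05), against 1.51% of all tested genes called lower and 1.09% called higher. The 7 were Klra1, Klra3, Klra5, Klra6, Klra7, Klra9 and Klrb1c, and their falls ran from 1.79-fold to 5.76-fold. DESeq2 called 9 of the 10 lower and limma voom 5, without Klra5 (adjusted p = 0.0874) and Klra6 (0.0517), and Klra5 also missed the threshold with no filter on low counts (0.0591 by edgeR). The median log2 fold change of the 10 was −1.60, and that of all tested genes was 0.02. The knockout libraries lay below both WT libraries in 9 of the 10 genes, Klrb1a being the exception. Klrb1b passed the filter on low counts only through its WT libraries (142 and 128 reads against 1 and 0 in the knockout). Its direction was thus fixed once it was tested, and it lends no support to the counts of negative values and of genes without overlap. Among all tested genes 50.3% had no overlap between the genotypes, and 24.9% had none with the knockout lower. Together the 10 genes took 0.199% and 0.228% of all counts in WT and 0.0901% and 0.0940% in the knockout. In bulk samples fewer cells that express a receptor and less RNA per cell cannot be told apart.

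**Figure D1:**
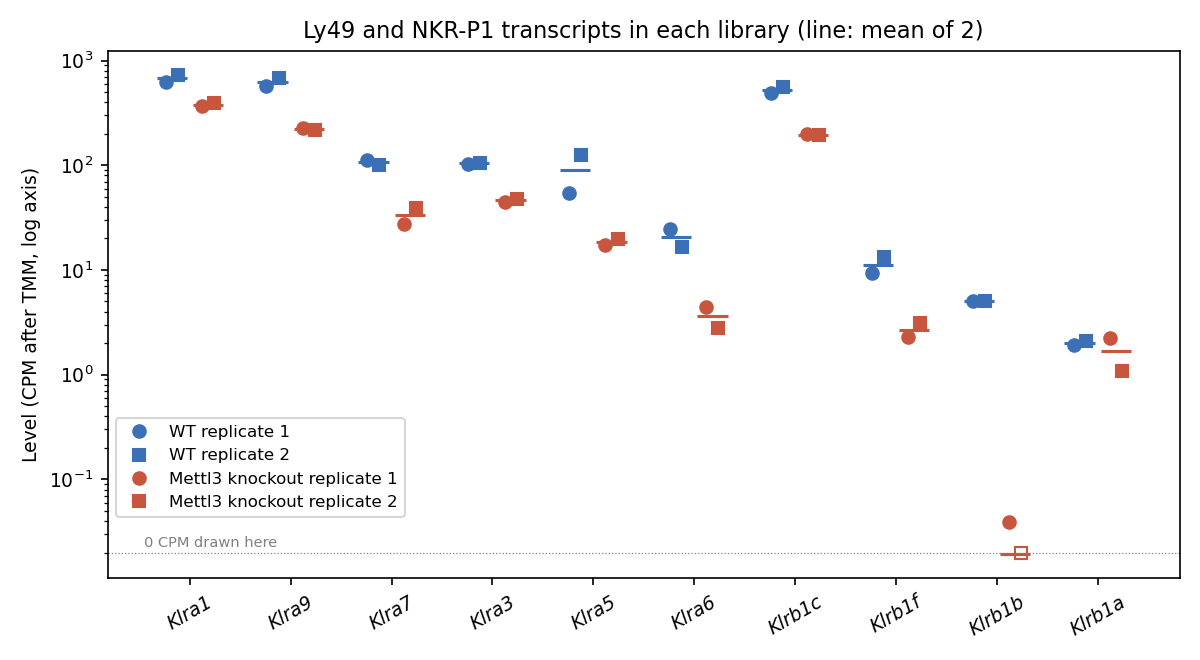
Level of each of the 10 genes in each of the 4 libraries, in TMM-scaled CPM on a log axis, with points for single libraries, short lines for the genotype means (n = 2 each) and the knockout library without a Klrb1b count drawn on the dotted line. Points of the knockout lie below both WT points in 9 genes and overlap them in Klrb1a.

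Among the inhibitory Ly49 receptors, Klra9, which encodes Ly49I, and Klra1, which encodes Ly49A, carried most of the transcripts. Klra9 stood at 572 and 687 CPM in WT and at 224.8 and 219.6 CPM in the knockout. Both knockout libraries lay far below the WT pair and close to each other, and the fall was 2.83-fold (log2 fold change −1.50, SE 0.12, adjusted p = 0.00257). Klra1 was measured at 629 and 733 CPM in WT and at 368 and 393 CPM in the knockout. Its fall was 1.79-fold (log2 fold change −0.84, SE 0.11, 95% interval −1.09 to −0.59, adjusted p = 0.0124), and the groups did not overlap.

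Klra7 and Klra3 were next in level. Klra7 encodes Ly49G, an inhibitory receptor carried by a large share of NK cells in this strain, and it stood at 113 and 101 CPM in WT and at 27.3 and 39.0 CPM in the knockout. The knockout values were both under the lower WT value, a 3.23-fold fall (log2 fold change −1.69, SE 0.21, adjusted p = 0.0101). Klra3 encodes Ly49C, which with Ly49I recognises the class I molecule H-2Kb of this strain. Its level was 103 and 105 CPM in WT against 44.4 and 48.0 CPM in the knockout, with little spread in either genotype. The fall was 2.25-fold (log2 fold change −1.17, SE 0.16, adjusted p = 0.0138).

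Klra5 and Klra6 had the largest fitted falls and the least even WT values of the 6 Ly49 genes. Klra5, which encodes Ly49E, a receptor known from fetal NK cells and some T cells, stood at 54.2 and 126 CPM in WT and at 17.5 and 19.9 CPM in the knockout. The WT libraries differed more from each other than the knockout libraries did, and the fitted fall was 4.78-fold (log2 fold change −2.26, SE 0.43, 95% interval −3.26 to −1.25, adjusted p = 0.0458). Without WT replicate 2, the higher of the WT libraries, the log2 fold change was −1.54 and the call was lost. Klra6, which encodes Ly49F, was at 24.8 and 16.6 CPM in WT and at 4.43 and 2.77 CPM in the knockout. It fell 5.76-fold (log2 fold change −2.53, SE 0.44, adjusted p = 0.0358), with no overlap of the groups.

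In the NKR-P1 family only Klrb1c passed the test of the 4 genes. Klrb1c encodes NK1.1 and held 96.5% to 97.9% of the counts of the 4 genes in each library. Its level was 492 and 562 CPM in WT against 199 and 193 CPM in the knockout. The knockout pair lay close together below WT, and the fall was 2.69-fold (log2 fold change −1.43, SE 0.11, adjusted p = 0.00253).

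Klrb1b and Klrb1f were low and did not pass. Klrb1b encodes the inhibitory receptor NKR-P1B, and its reads numbered 142 and 128 in WT and 1 and 0 in the knockout, or 5.05 and 5.10 CPM against 0.0389 and 0 CPM. Both knockout libraries were below the floor of 3 counts while the WT pair was nearly equal. The ratio of the scaled counts, 270 in WT to 1 in the knockout, was 257 (95% interval 45.7 to 10184, which covers counting error only). With the knockout library that held the single read left out, the WT level was at least 42.1-fold higher, against a floor of 3 counts in the other knockout library. The adjusted p was 0.0512 by edgeR's quasi-likelihood test and 0.00014 by DESeq2. Klrb1f, which encodes NKR-P1F, stood at 9.28 and 13.2 CPM in WT and at 2.29 and 3.09 CPM in the knockout. The groups did not overlap, and the log2 fold change of −2.05 (SE 0.49, 95% interval −3.19 to −0.91) had an adjusted p of 0.0760 by edgeR and 0.00625 by DESeq2.

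Klrb1a, which encodes the activating receptor NKR-P1A, was the least transcribed of the 10 genes in WT per kilobase of exon. It stood at 1.92 and 2.11 CPM in WT and at 2.25 and 1.08 CPM in the knockout. One knockout library was above both WT libraries and the other below, and the log2 fold change of −0.26 (95% interval −1.91 to 1.39) had an adjusted p of 0.889 by edgeR. Without knockout replicate 2 it was 0.16. The interval holds the fitted value of Klrb1c, so a different response of the gene pair with the similar promoter windows was not shown, and the difference between them was not tested.

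**Figure D2:**
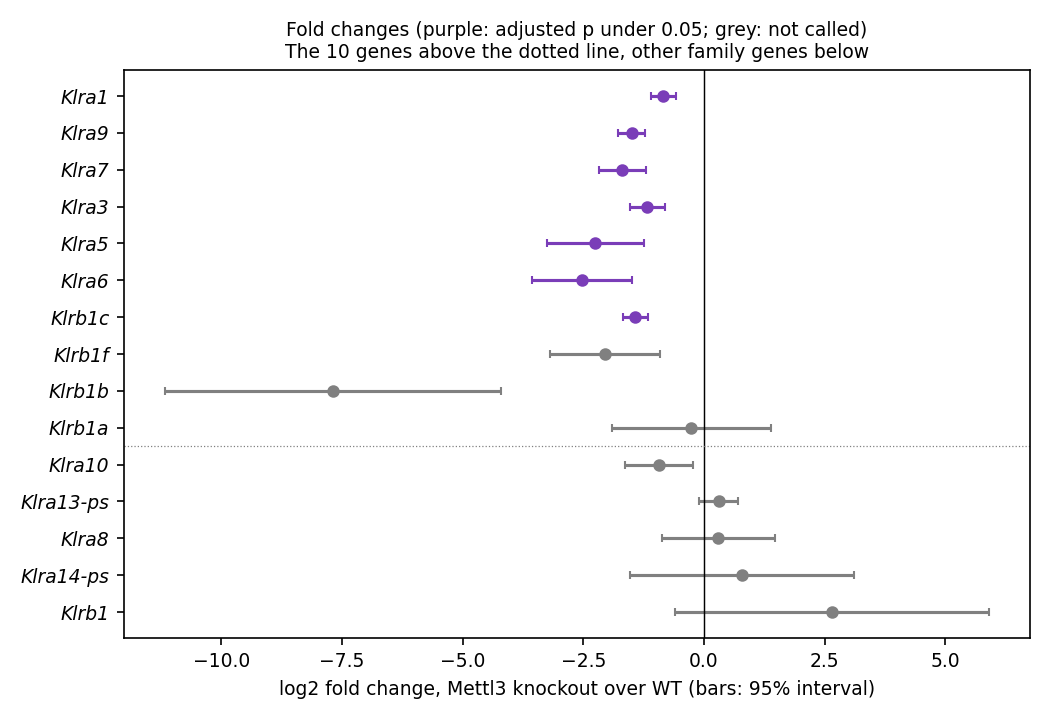
Log2 fold change (knockout over WT) with its 95% interval from edgeR for the 10 genes, above the dotted line, and for the other Ly49 and NKR-P1 genes that were tested and had counts in both genotypes, below it. The purple points passed an adjusted p under 0.05 (7 of the 10 genes and none of the others), and the intervals of Klrb1b, Klrb1f and Klrb1a are the widest of the 10.

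Of the 7 calls, 2 held whichever library was left out. Klra9 and Klrb1c passed with any one library left out (highest adjusted p 0.0374 by edgeR). Klra7 passed only without knockout replicate 2, and its adjusted p by edgeR was 0.0613, 0.0557 or 0.0779 when WT replicate 1, WT replicate 2 or knockout replicate 1 was left out. Klra1 passed only without WT replicate 1, and its adjusted p by edgeR was 0.0532 when WT replicate 2 was left out and 0.120 and 0.0973 when knockout replicate 1 or 2 was. Klra5 likewise passed only without WT replicate 1 and reached an adjusted p of up to 0.203 without one of the others. Klra3 and Klra6 passed with none of the libraries left out, at 0.0601 to 0.129 and 0.0799 to 0.184 by edgeR. These fits have a lone library in one genotype, which is assumed to vary like the others. All 10 genes kept a negative log2 fold change in each of these fits, except Klrb1a without knockout replicate 2. With all 4 libraries, 6913 of the 14185 tested genes had a negative value.

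**Figure D3:**
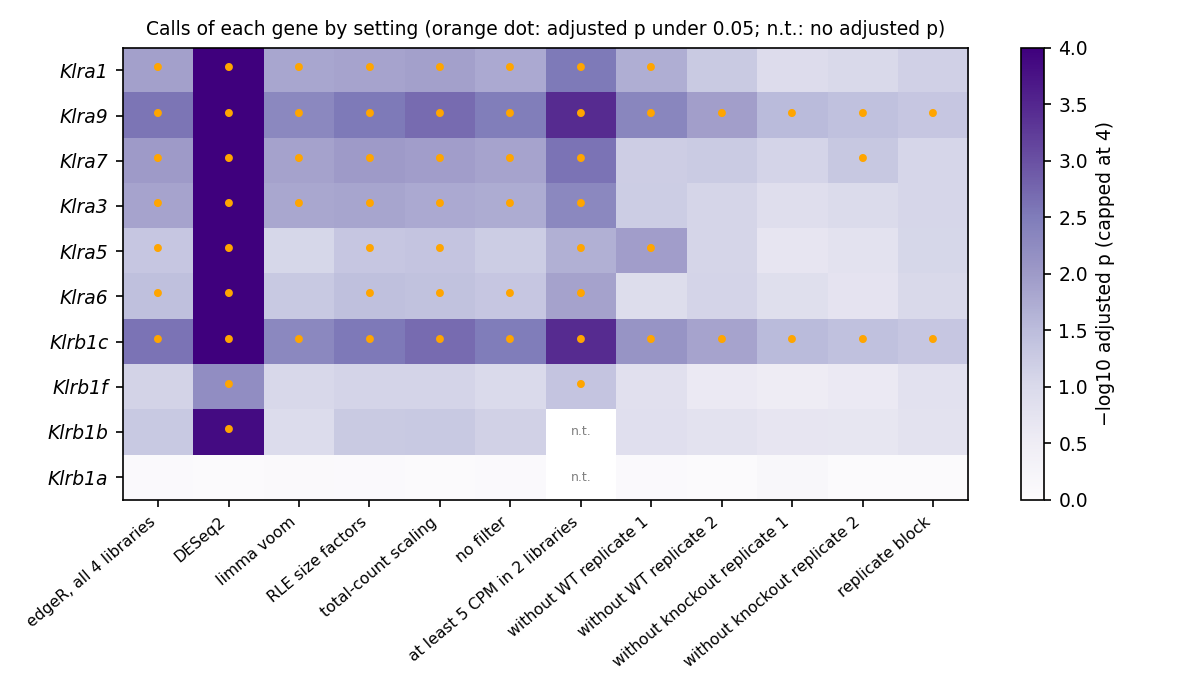
Adjusted p of each of the 10 genes (rows) under each processing setting (columns), as −log10 in colour, with an orange dot where it was under 0.05 and n.t. where the gene was not tested. Klra9 and Klrb1c passed in every setting, and Klrb1a passed in none.

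Per kilobase of annotated exon, Klra9 was the most abundant of the 10 in WT, at 447 and 537 CPM per kb, followed by Klra1 at 356 and 416 CPM per kb. In the knockout the order of this pair was the other way, with Klra1 at 208 and 223 CPM per kb and Klra9 at 176 and 172 CPM per kb, and the libraries of the pair did not overlap in either genotype. Klrb1c came next in both, at 166 and 190 CPM per kb in WT and at 67.2 and 65.1 CPM per kb in the knockout. Klra7, Klra3 and Klra5 overlapped in WT, at 79.8 to 89.5, 82.9 to 85.1 and 38.8 to 89.9 CPM per kb, so their order there was not resolved. In the knockout they no longer overlapped, with Klra3 at 35.9 and 38.8, Klra7 at 21.6 and 30.9 and Klra5 at 12.5 and 14.3 CPM per kb. Klra6 (22.2 and 14.8 in WT), Klrb1f (4.58 and 6.51), Klrb1b (2.27 and 2.29) and Klrb1a (1.20 and 1.32 CPM per kb) followed in WT without overlap. In the knockout Klrb1b was last, below Klrb1a at 1.41 and 0.679 CPM per kb.

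Klra1 made up more of the Ly49 counts in the knockout. Of the counts of the 6 Ly49 genes, 42.0% and 41.4% were Klra1 in WT, and 53.6% (exact 95% interval 52.8 to 54.3) and 54.4% (53.7 to 55.1) in the knockout. These intervals cover counting error within a library only, not the spread between libraries. Klra9 made up 38.3% and 38.8% in WT and 32.8% and 30.4% in the knockout. The ratio of Klra9 to Klra1 counts within a library, which no scaling changes, was 0.910 and 0.937 in WT and 0.612 and 0.559 in the knockout. The genotypes did not overlap in this ratio, and the difference was not tested.

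**Figure D4:**
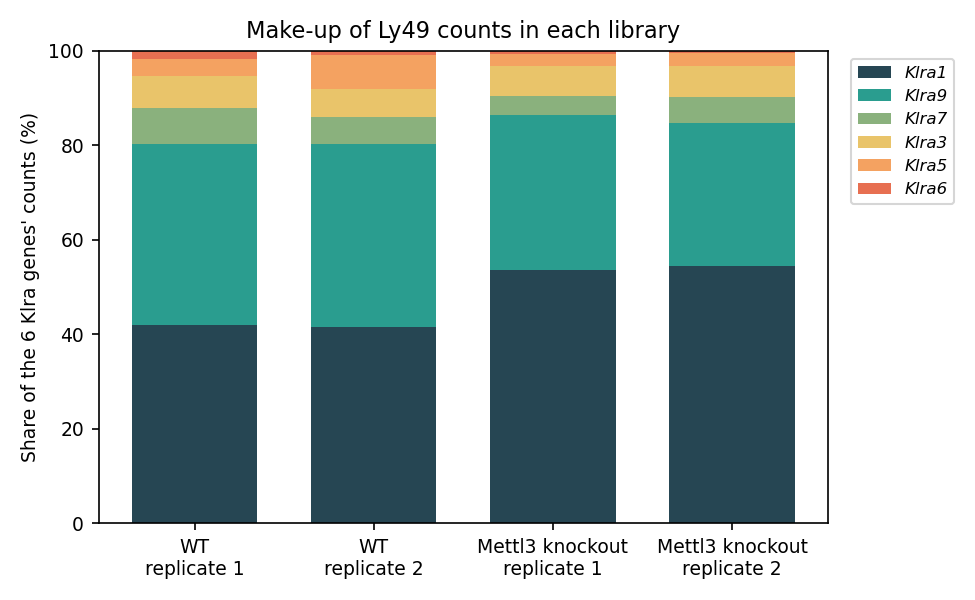
Share of each gene in the counts of the 6 Ly49 genes, in percent, as stacked bars for each library. Klra1 takes 42.0% and 41.4% in WT, then 53.6% and 54.4% in the knockout, and Klra9 and Klra1 together fill most of every bar.

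Reads from the most alike copies can be credited to the wrong gene, and how ambiguous reads were counted is not given in the sources used here. Coding sequences of Klra9, Klra3 and the further Ly49 gene Klra10 (Ly49J) were 95.9% to 96.9% identical. Runs of 50 bases that also stood in another gene made up 31.5% of the Klra9 runs and 20.7% of the Klra3 runs, against 2.98% for Klra1, 2.62% for Klra6 and 0.655% for Klra5. The counts of Klra3, Klra9 and Klra10 summed to 743 and 833 CPM in WT and to 294 and 300.6 CPM in the knockout, 2.65-fold lower. Klra7 shared 12.3% of its 50-base runs, with the pseudogene Klra13-ps. That pseudogene stood at 108 and 100 CPM in WT and at 109 and 148 CPM in the knockout (log2 fold change 0.31, adjusted p = 0.386 by edgeR), so the count ratio of Klra7 to it was 1.05 and 1.009 in WT and 0.250 and 0.265 in the knockout. Summed, Klra7 and Klra13-ps stood at 221 and 201 CPM in WT and at 137 and 187 CPM in the knockout, 1.30-fold lower (log2 −0.38), against the 3.23-fold fall of Klra7 alone. Klrb1b and Klrb1c share exons with an annotated readthrough gene, Gm44511, whose 1012 exonic bases all lie within them, 599 in Klrb1b and 413 in Klrb1c. Gm44511 had 0 counts in every library, which need not reflect its transcription, since it has no exonic base of its own. Outside it lie 1629 of the 2228 exonic bases of Klrb1b and 2548 of the 2961 of Klrb1c. If reads over shared bases were not counted, the levels of these genes per kilobase are too low. The 6 Ly49 genes summed to 1496 and 1769 CPM in WT and to 686 and 722 CPM in the knockout, 2.32-fold lower. All 14 Klra genes of the count table, with Klra10 and Klra13-ps, summed to 1677 and 1913 CPM against 827 and 909 CPM, 2.07-fold lower. The 4 NKR-P1 genes summed to 508 and 582 CPM against 204 and 197 CPM, 2.72-fold lower.

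Other Ly49 and NKR-P1 genes did not pass the test. Of 9 listed, 6 were tested and 0 passed by edgeR (2 had an unadjusted p under 0.05, Klra10 and Klra17), against 2.59% of all tested genes called in either direction. By DESeq2, Klra10 and Klra17 passed (adjusted p = 0.0474 and 0.0477). Klra10 had the one negative value of the 6, at 68.1 and 40.9 CPM in WT against 24.4 and 33.0 CPM in the knockout (log2 fold change −0.94, adjusted p = 0.143 by edgeR). Klra8 stood at 4.59 and 3.07 CPM in WT and at 4.66 and 4.85 CPM in the knockout. Klra4, which encodes the activating receptor Ly49D, had 1 read over the 4 libraries, and Klra2 and Klrb1-ps1 had none. Klra17, which encodes Ly49Q, a receptor of plasmacytoid dendritic and myeloid cells, had 0 and 0 reads in WT and 46 and 12 in the knockout, at least 10.04-fold higher against a floor of 3 counts per WT library (adjusted p = 0.184 by edgeR). Without knockout replicate 1 that bound was 4.26-fold, and without knockout replicate 2 it was 15.8-fold. Klrb1 had 9 and 0 reads in WT and 45 and 10 in the knockout (adjusted p = 0.345 by edgeR), and Klra14-ps was under 1 CPM in every library. Klra17 and Klrb1 passed the filter on low counts only through their knockout libraries. Their direction was thus fixed once they were tested, and they lend no support to the count of negative values among the 6.

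Of 6 genes for ligands of these receptors 5 were tested, and 1 passed lower, against 1.51% of all tested genes. It was B2m, the light chain of class I molecules (log2 fold change −0.48, adjusted p = 0.0484 by edgeR). Its call was lost when WT replicate 2 or either knockout library was left out (0.129 to 0.275), and under RLE size factors (0.0534), total-count scaling (0.0512) or no filter (0.0651 by edgeR). The class I heavy chain genes H2-K1 and H2-D1 were at log2 fold changes of −0.16 and −0.20 and did not pass. Clec2i, the ligand of NKR-P1F, stood at 126 and 101 CPM in WT and at 63.5 and 69.9 CPM in the knockout (log2 fold change −0.77, adjusted p = 0.0634 by edgeR). Clec2d, the ligand of NKR-P1B, was low in all libraries, at 3.34 and 2.79 CPM in WT against 2.14 and 0.762 CPM in the knockout.

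Of 15 adaptor and phosphatase genes 14 were tested, 2 were lower and 0 higher by edgeR (5 and 0 by DESeq2), with a median log2 fold change of −0.31. Over all tested genes edgeR called 1.51% lower and 1.09% higher, and DESeq2 called 682 genes lower and 697 higher. Fcer1g, the FcRγ adaptor with which NK1.1 pairs, fell from 27.9 and 32.4 CPM to 8.67 and 9.75 CPM (log2 fold change −1.71, adjusted p = 0.0311 by edgeR). Ptpn6, the phosphatase SHP-1 that inhibitory Ly49 receptors recruit, fell from 999 and 1142 CPM to 749 and 776 CPM (log2 fold change −0.49, adjusted p = 0.0463 by edgeR). Both calls were lost when WT replicate 2 or either knockout library was left out (adjusted p 0.119 to 0.243 by edgeR), and that of Fcer1g also without WT replicate 1. The Ptpn6 call was lost too under RLE size factors (0.0503) and with no filter (0.0628 by edgeR). The kinase Zap70 (adjusted p = 0.0658) and the exchange factor Vav1 (0.0816 by edgeR) did not pass. Tyrobp, the DAP12 adaptor of the activating Ly49 receptors, was under 1 CPM in each library and was not tested.

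Of 16 regulators of the NK and NKT1 programme, 1 fell and 1 rose by edgeR, against 1.51% and 1.09% of all tested genes. By DESeq2 3 fell and 2 rose, and the median log2 fold change by edgeR was −0.12. Tbx21, which encodes T-bet, stood at 552 and 732 CPM in WT and at 338 and 315 CPM in the knockout (log2 fold change −0.98, adjusted p = 0.0202 by edgeR). Lef1, a TCF/LEF factor of immature thymocytes, stood at 417 and 385 CPM in WT and at 690 and 660.2 CPM in the knockout (log2 fold change 0.75, adjusted p = 0.0112 by edgeR). Both calls were lost in the same 3 cases (0.0522 to 0.147). Runx3 (log2 fold change −0.81, adjusted p = 0.0607) and Prdm1, which encodes BLIMP-1 (−1.39, 0.0793 by edgeR), did not pass.

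Of 24 other lectin genes of the NK complex 23 were in the table and 12 were tested, of which 6 passed lower and 1 higher, with a median log2 fold change of −2.71. Over all tested genes 1.51% passed lower and 1.09% higher by edgeR. Klrk1, which encodes NKG2D, fell from 553 and 793 CPM to 68.3 and 37.9 CPM, and Klrd1, which encodes CD94, from 348 and 454 CPM to 74.2 and 83.6 CPM. Their log2 fold changes were −3.66 and −2.35 (adjusted p = 0.00217 and 0.00214 by edgeR), and the same 6 genes, Klrc1, Klrc2, Klrd1, Klre1, Klrk1 and Klri2, passed lower whichever library was left out (highest adjusted p 0.0468). The gene that passed higher was Clec7a, a receptor of myeloid cells for fungal glucans (log2 fold change 4.25, adjusted p = 0.0410 by edgeR), which lost its call in each fit with 3 libraries. Its reads numbered 16 and 1 in WT and 150 and 161 in the knockout, so it passed the filter on low counts only through the knockout. From the start of Klrb1a to the end of Klra2, a stretch of 121 annotated genes on chromosome 6 from 128609227 to 131247362, 39 genes were tested, 13 passed lower and 1 higher. Of the 13, 7 were among the 10 receptor genes and the others were Klre1, Klrd1, Klrk1, Klrc2, Klrc1 and Klri2.

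**Figure D5:**
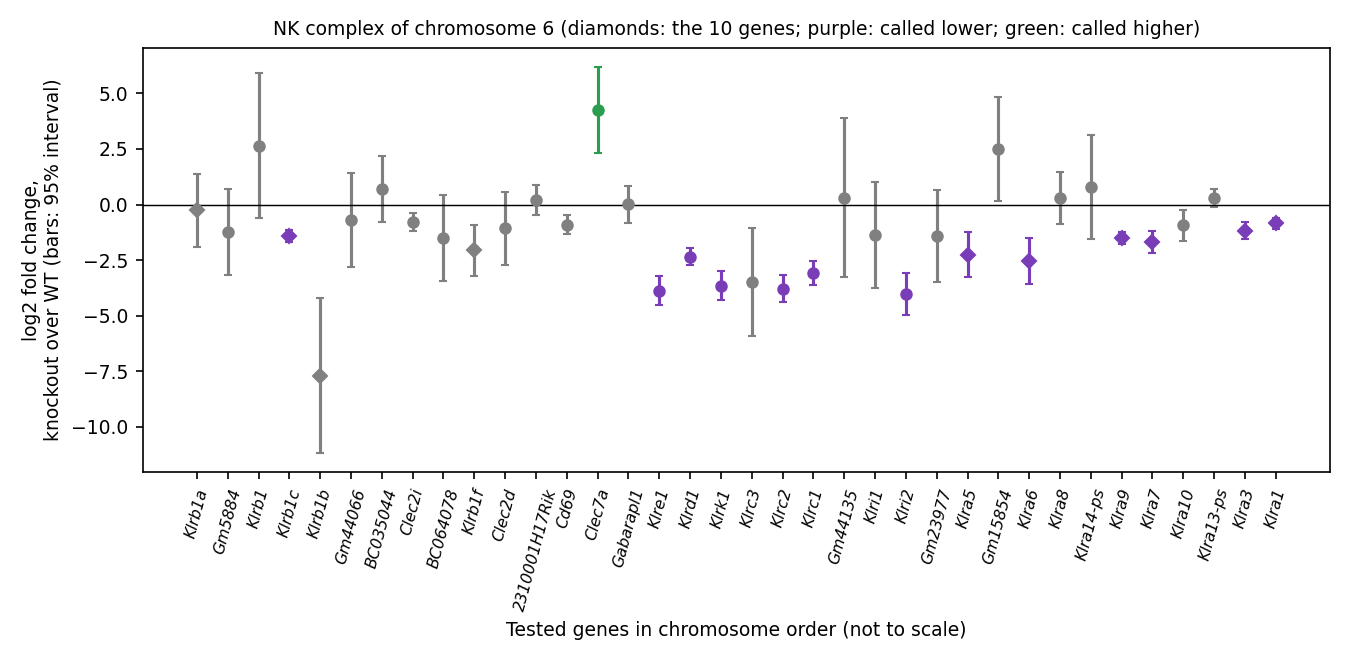
Log2 fold change (knockout over WT) of 36 tested genes between Klrb1a and Klra2 in their order along the chromosome, with 95% intervals from edgeR, diamonds for the 10 receptor genes, purple for genes that passed lower and green for the one that passed higher. The 3 tested genes with no count in 1 genotype are not drawn, and 13 genes that passed lie below 0 and 1, Clec7a, above it.

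Of the marker lists fixed for cell subsets and other cells, those of NKT1, NKT2, NKT17, NK and myeloid cells held genes that passed the test, and their part in the receptor differences was not tested. Over all tested genes 1.51% passed lower and 1.09% higher by edgeR. DESeq2 called 682 genes lower and 697 higher, and voom called 177 lower and 105 higher. Of 15 NKT1 markers 14 passed lower by edgeR (9 by voom) and 0 higher by either (median log2 fold change −2.29, summed levels 5144 and 7100 CPM in WT against 2645 and 2579 CPM in the knockout), a list that shares Klrd1, Klrc1 and Klrk1 with the lectin genes and Tbx21 and Il2rb with the regulators. Of 12 NKT17 markers 7 passed lower (median −2.55), and of 10 NKT2 markers 3 passed higher and 0 lower (median 0.84), against 6 and 1 by DESeq2. Of the NKT17 markers, Ccr6, which is 1 of the 7, and Il17a passed the filter on low counts only through WT. In the knockout Ccr6 had 1 and 0 reads and Il17a had 0 and 0. Their direction was thus fixed once they were tested, and they lend no support to that count and median. Of 8 CD4+CD8+ thymocyte markers 0 passed by edgeR (5 were higher by DESeq2, as at an unadjusted p under 0.05), with a summed level of 757 and 880.0 CPM in WT against 1301 and 1171 CPM in the knockout. Of 16 myeloid and dendritic cell markers 14 were tested, 4 passed higher by edgeR (2 by voom) and 1, Fcer1g, lower, and they summed to 86.4 and 116 CPM in WT and to 460 and 527 CPM in the knockout. Lyz2, the lysozyme of myeloid cells, rose from 29.6 and 47.5 CPM to 325 and 386 CPM (adjusted p = 0.00214 by edgeR) and was most of the knockout sum. Flt3 and Itgam were at 0 in both WT libraries, while 4 of the 14 tested markers had a negative log2 fold change. Of the 4 that passed higher, Cd209a and Csf1r passed the filter on low counts only through the knockout. Cd209a had 0 and 42 reads in WT against 794 and 921, and Csf1r 24 and 0 against 761 and 389. Like Flt3, they lend no support to the counts by direction. Of 9 B cell markers 5 were tested and 0 passed by edgeR or DESeq2, 1 having an unadjusted p under 0.05 (summed levels 7.82 and 16.7 CPM in WT against 32.5 and 25.4 CPM), with Pax5 at 0 throughout. Of 9 NK cell markers 6 were tested and 2 passed lower, Prf1 and Gzma, which NKT1 cells also transcribe (Gzma is in that list too), and the list summed to 157 and 274 CPM in WT against 60.0 and 49.99 CPM in the knockout. Of the others in that list, Itga2, which encodes CD49b, was at 8.39 and 10.2 CPM in WT and at 3.85 and 3.13 CPM in the knockout (unadjusted p = 0.0154 and adjusted p = 0.142 by edgeR), and Fcgr3 at 8.79 and 4.34 CPM against 2.49 and 3.53 CPM. Eomes was at 0 in WT and under 1 CPM in the knockout, Ncr1 was at 0.782 and 2.43 CPM in WT and at 1.010 and 0 CPM in the knockout, and Cma1 and Khdc1a were at 0 in each library. Of 5 tested markers of γδ T cells 0 passed by edgeR or DESeq2, 2 having an unadjusted p under 0.05, and they summed to 1225 and 1382 CPM in WT against 1184 and 1221 CPM in the knockout. Without WT replicate 1, WT replicate 2, knockout replicate 1 and knockout replicate 2 in turn, 13, 7, 5 and 5 NKT1 markers and 4, 4, 3 and 2 NKT17 markers passed lower, and 3, 2, 1 and 1 NKT2 markers and 2, 2, 3 and 2 myeloid markers passed higher. Prf1 and Gzma passed only without WT replicate 1, and Gzma did not pass by voom.

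Klra1 had the highest mean level in CPM of the 10 and was used to look for genes with a like pattern over the 4 libraries. The measure was the root mean square difference of log2 CPM after centring each gene. It was taken over 9638 tested genes with a mean of 5 CPM or more and a count in every library. Those of the 10 that met this are within the 9638 but were left out of the ranking. The nearest were Dguok, a mitochondrial deoxyguanosine kinase (0.0258), Sar1a, a GTPase of vesicle export (0.0314), and Gm15542 (0.0329), and 67 genes lay within 0.1.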

How the data were processed

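RNA was measured in 4 libraries of thymic iNKT cells, 2 per genotype, grouped by their labels. As deposited by the authors, the values are raw counts per gene in each library, not pooled. Per the submitters' processing notes, FastQC 0.11.5, STAR 2.6.0a, HTSeq 0.6.1, DESeq2 1.18.1 and the build mm10 were used. Not given in the sources used here are the role of each tool, the annotation and the treatment of strand and of multiply mapped reads. Smart-seq2 does not mark strand, so reads of a gene and of an overlapping antisense gene cannot be told apart, but no annotated exon of an opposite-strand gene overlapped exons of the 10 genes. IDs were matched to GENCODE M21 (53620 without and 51464 with the version), and coordinates are given for genes whose version matched.

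In R 4.3.3, edgeR 4.0.16 filtered genes (filterByExpr), scaled libraries by TMM and compared genotypes by its two-sided quasi-likelihood test on the counts (glmQLFit with robust=TRUE, 2 residual degrees of freedom), with Benjamini-Hochberg adjustment over all 14185 genes. CPM are per 1000000 counts after TMM scaling, and values are means or single libraries with n = 2. The test was checked on simulated counts. DESeq2 1.42.0, limma 3.58.1 (voom), DESeq2's size factors (RLE), total-count scaling, no filter, a filter of 5 CPM in 2 libraries, each library left out and the replicate number as a block were the alternatives. Replicates of a genotype differed beyond counting noise (chi-square per degree of freedom 42.5 in WT, 27.0 in the knockout). Count intervals and floors cover counting error only, because PCR copies of a molecule were not marked.

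The 10 genes and all lists were chosen with earlier results of these data known. Named besides them by rule were Mettl3, the other listed Klra and Klrb1 genes, up to 4 genes with the smallest p of each pathway list, called ones first, up to 3 of each marker list and the 3 genes most like Klra1. Clec2d, Tyrobp, Clec7a, Klri2, Ccr6, Il17a, Csf1r, Flt3, Itgam, Pax5, Eomes, Fcgr3, Ncr1, Cma1, Khdc1a, Gm44511 and Gm52487 were named after their values were seen.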

Additional observations from a re-analysis of the deposited data

How the results depend on the processing

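Of 108 values of the 10 genes under the alternatives, 79 kept their direction and call, 25 kept the direction and lost the call, 3 gained it, and Klrb1a turned to 0.16 (lowest −0.89) without knockout replicate 2. Klra9 and Klrb1c kept their calls in all 11 alternatives. The genes called lower among the 10 numbered 2 to 4 with a library left out and 2 with the replicate block, and 0 of the 10 were called higher in any alternative, against an unadjusted p under 0.05 by edgeR for 9 genes, all lower. Over the whole table, called genes numbered 1379 by DESeq2, 727 with the filter of 5 CPM, which left Klrb1a and Klrb1b untested, 41 to 172 with a library left out and 33 with the replicate block, against 368. Genes called in the pathway lists numbered 20 by DESeq2, 6 to 11 with a library left out and 5 with the block, against 12. The summed NKR-P1 counts had a log2 fold change of −1.54 to −1.34 with a library left out. The replicate number is only a shared number, since no label pairs the libraries and deviations of same-numbered libraries had a correlation of −0.03 over 9655 genes. Without knockout replicate 2 Klra14-ps turned to −0.11 (highest 1.37). Without WT replicate 1 Icos turned to 0.20 (lowest −0.38). Tcrg-C4 turned to 0.047 under total-count scaling, 0.093 without WT replicate 2 and 0.00097 without knockout replicate 2. Causes were not tested beyond the fewer samples or genes these fits hold. The least read genes were Klrb1a, Klrb1b and Klrb1f, with 331 reads or fewer per library, and the part of depth in their calls was not tested.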
